A study of Mus musculus with 19 samples.

Results

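The comparison set the sciatic nerves of all diabetic DBA/2J mice against those of all control mice, within the 14 of 19 arrays whose RNA carried a strong sensory neuron signal. An array was kept where the log2 intensity of Isl1, a transcription factor of sensory neurons, lay above 8. The lowest kept array was array C of the diabetic rosiglitazone group at 9.47, and the highest array left out was a control rosiglitazone array at 6.41. Of the 5 arrays left out, 4 were diabetic and 1 was a control, so the choice by Isl1 was uneven between the groups. The kept arrays were 2 diabetic mice given vehicle (arrays A and B), 4 diabetic mice given rosiglitazone (A to D), 4 control mice given vehicle (A to D) and 4 control mice given rosiglitazone (A to D). Letters follow the order of the sample titles and only name the arrays. This made 6 diabetic arrays against 8 control arrays, with treatment as a second term of the model.

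DBA/2J is an inbred strain, and all mice carried its genotype. Streptozotocin, a toxin of the insulin-producing beta cells, was the agent of diabetes, and rosiglitazone activates the nuclear receptor PPAR gamma. The vehicle controls are labelled as having no treatment, and ages, doses and times are not given in the labels. Each array held the nerve of 1 mouse, read on an Affymetrix platform of 45101 probe sets, and the series text gives 5 mice per group with 1 control array removed by its authors.

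Sciatic nerve is built of axons wrapped by Schwann cells, with fibroblasts, vessels and resident immune cells between them. The cell bodies of the sensory axons lie outside the nerve, in the dorsal root ganglia, together with satellite glia. Long-standing diabetes damages these axons, and Schwann cell lipid metabolism, myelin, matrix and inflammation have each been studied in that setting.

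The values are intensities put on the log2 scale, and every difference below is a log2 difference of diabetic minus control arrays, adjusted for treatment, with its standard error (SE). Medians of the kept arrays' intensities ran from 93.3 to 101.7. Of 18193 genes with a symbol, 13460 passed a filter on dim probe sets and were tested with limma. The number of mice limits the precision, and in whole nerve fewer cells of a type and less RNA per cell cannot be told apart.

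Isl1 itself ran from 9.47 to 11.35 in the diabetic arrays and from 9.98 to 11.26 in the control arrays. The sensory neuron label was borne out by other genes of ganglion cell bodies. Prph, an intermediate filament of sensory neurons, had a lowest, median and highest log2 intensity of 11.23, 12.60 and 13.14 in diabetic arrays, against 11.29, 12.09 and 12.66 in control arrays. Scn10a, the sodium channel of nociceptors, had 7.74, 9.62 and 10.10 in diabetic arrays, against 7.77, 8.93 and 9.63 in control arrays. Since the arrays were chosen by Isl1, these levels are a description with no test. Over the 19 sensory neuron genes tested, Isl1 among them, 17 lay higher in the diabetic arrays, with a median difference of 0.28 that was 0.81 among vehicle arrays and -0.04 among rosiglitazone arrays. That median was 0.09 without diabetic vehicle array A and 0.48 without diabetic rosiglitazone array C.

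Markers of the central nervous system were also present. Mog, a gene of oligodendrocyte myelin, lay below the filter level of 5.54 log2 units in diabetic rosiglitazone array D, at 3.47, and in control vehicle array B, at 3.60. In the other arrays, 5 of 6 diabetic and 7 of 8 control, it lay between 7.60 and 9.82. Mobp, another gene of that myelin, had its lowest values in the same 2 arrays, 4.36 in diabetic rosiglitazone array D and 7.28 in control vehicle array B. The median difference of 12 central glia genes was 1.01 among vehicle and -0.86 among rosiglitazone arrays. Fat and muscle varied widely too. Adipoq, the adiponectin gene of adipocytes, had 11.50, 12.39 and 12.69 in diabetic arrays, against 8.04, 12.30 and 13.17 in control arrays, where control vehicle array A held the lowest value. Acta1, skeletal muscle actin, had 4.78, 9.09 and 13.27 in diabetic arrays, against 5.66, 9.10 and 10.84 in control arrays. Neither marker gene differed detectably (Adipoq, exact permutation p = 0.727, and Acta1, exact permutation p = 0.658, two-sided, with splits made within treatment). These tests cover the 2 genes only. Of 29 skeletal muscle genes, 27 lay higher in diabetic arrays, against 50.3% of all genes, with a median of 0.69.

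A measure of RNA integrity did differ. The Gapdh 3' minus 5' difference, which grows as RNA is shortened before labelling, had 1.00, 1.10 and 1.15 log2 units in diabetic arrays, against 1.11, 1.23 and 1.37 in control arrays. The groups overlapped only at their edges. The difference within treatment was -0.15 (exact permutation test over 1050 splits, two-sided p = 0.00952, 0.0381 after adjustment over the 4 measures tested). The same measure on beta-actin did not differ detectably (difference -0.02, exact permutation p = 0.909). Among vehicle arrays the Gapdh measure ran from 1.09 to 1.14 in diabetic and from 1.11 to 1.37 in control arrays, and among rosiglitazone arrays from 1.00 to 1.15 in diabetic and from 1.18 to 1.34 in control arrays, not tested within a treatment. Its part in the results was not tested beyond a fit with the measure as a covariate, whose values are given beside the main gene groups.

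**Figure D1:**
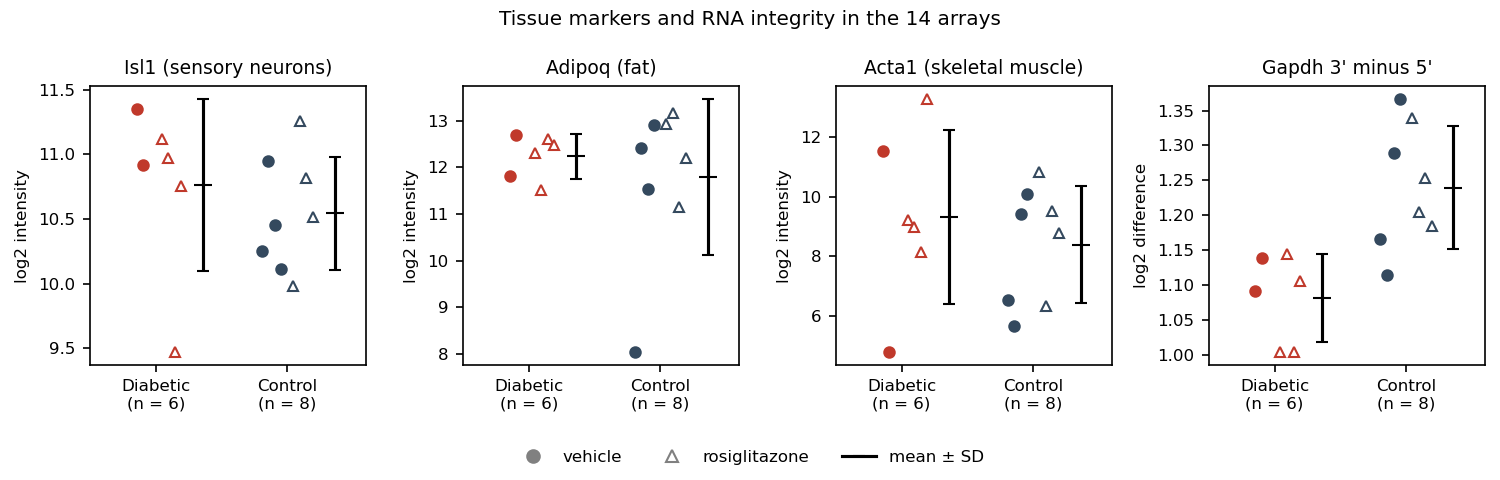
Log2 intensity of Isl1, Adipoq and Acta1, and the Gapdh 3' minus 5' log2 difference, in the 6 diabetic and 8 control arrays. Circles are vehicle and triangles rosiglitazone arrays, and bars give mean ± SD. Isl1, Adipoq and Acta1 overlap between the groups, and the Gapdh difference is lower in diabetic arrays, 1.00 to 1.15 against 1.11 to 1.37.

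The central question was which genes differed between diabetic and control nerves when both treatments were pooled. No gene passed an adjusted p of 0.05 (0 of 13460, 0%, limma with Benjamini-Hochberg adjustment). The smallest adjusted p was 0.0854, for Irf7. At an unadjusted p under 0.05 stood 1098 genes (8.16%), of which 465 were higher (3.45%) and 633 lower (4.7%) in diabetic arrays. All diabetic arrays lay above all control arrays for 10 genes (0.0743%) and below them for 19 (0.141%). The genes named below are therefore the leading ones of a comparison in which none passed, and their values are given as measured.

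Irf7, the transcription factor that drives type I interferon production, stood first. Its log2 intensity had a lowest, median and highest value of 8.19, 8.64 and 9.05 in diabetic arrays, against 6.90, 7.64 and 7.85 in control arrays. Every diabetic array lay above every control array. The difference was 1.12 ± 0.16 (SE, n = 6 diabetic and 8 control arrays), or 2.17-fold, at an adjusted p of 0.0854 in limma. It was nearly equal in both treatments, 1.11 among vehicle and 1.13 among rosiglitazone arrays. Leaving out 1 array at a time gave 1.02 to 1.18. With diabetic rosiglitazone array B left out, the adjusted p of limma was 0.0299, and with the Gapdh measure as a covariate the difference was 1.17 at an adjusted p of 0.716. The low-Isl1 arrays, which the fit did not use, had Irf7 at 9.32, 8.27, 8.13 and 9.66 in the 4 diabetic mice and at 8.74 in the control mouse. That control value lay inside the diabetic range.

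Apoc3 encodes an apolipoprotein that slows the clearance of triglyceride-rich lipoproteins and is made mainly in liver and gut. The probe set had 4.99, 6.69 and 7.77 in diabetic arrays, against 4.02, 4.49 and 4.74 in control arrays. All 8 control arrays and 1 of 6 diabetic arrays lay below the filter level of 5.54, so the gene passed the filter only through arrays where it was high and its difference is set against a dim signal. The groups did not overlap. The measured difference was 2.15, with 2.56 among vehicle and 1.88 among rosiglitazone arrays. Diabetic rosiglitazone array B held the lowest diabetic value. The low-Isl1 arrays had 4.56, 8.87, 4.47 and 8.24 in diabetic mice and 6.20 in the control mouse, so the gap between groups was not seen there.

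Other genes with the smallest p among those higher in diabetic arrays had differences from 0.31 to 0.59. Adarb1, an adenosine deaminase that edits RNA, had 11.01, 11.13 and 11.36 in diabetic arrays, against 10.49, 10.69 and 10.92 in control arrays, without overlap (0.45 ± 0.08, adjusted limma p 0.275), and all 3 of its probe sets pointed the same way. Rtp4, an interferon-induced chaperone of receptors, had 9.13, 9.32 and 9.61 in diabetic arrays, against 8.18, 8.84 and 9.12 in control arrays. Its difference was 0.59 ± 0.13, and the groups touched but did not overlap. Pstpip2, an F-BAR protein of macrophages, was 0.59 ± 0.12 higher, with overlap from 1 control array. Med27, a subunit of the Mediator complex, was 0.31 ± 0.07 higher without overlap. Slc45a4, Dyrk3, Gm4951 and Adgrg1 differed by 0.33, 0.50, 0.57 and 0.56. All but Irf7, Apoc3 and Adarb1 shared the adjusted p of 0.293.

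Among genes lower in diabetic arrays, St3gal3 led. It encodes a sialyltransferase of glycoproteins and gangliosides. Its log2 intensity had 9.95, 10.21 and 10.31 in diabetic arrays, against 10.51, 10.78 and 11.11 in control arrays, without overlap. The difference was -0.61 ± 0.10 (adjusted limma p 0.128), with -0.62 among vehicle and -0.60 among rosiglitazone arrays. Nkd2, an inhibitor of Wnt signalling, had 7.56, 7.69 and 8.06 in diabetic arrays, against 8.09, 8.34 and 8.76 in control arrays. It differed by -0.62 ± 0.11, and all 3 of its probe sets were lower. Fbn2, a fibrillin of elastic microfibrils, differed by -0.80 ± 0.15 and Srms, a tyrosine kinase, by -0.92 ± 0.18, both with overlap. Sc5d, which catalyses a late step of cholesterol synthesis, had 9.16, 9.56 and 9.76 in diabetic arrays, against 9.89, 10.14 and 10.46 in control arrays, without overlap (-0.61 ± 0.12). Ttc41, Zbtb38, Frmd4a, Pole4 and Snx16 differed by -0.59, -0.30, -0.36, -0.40 and -0.36. Nkd2 had an adjusted limma p of 0.275, and those after it 0.293. Leaving out any 1 array shrank none of these 20 differences by more than 1.5 times.

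**Figure D2:**
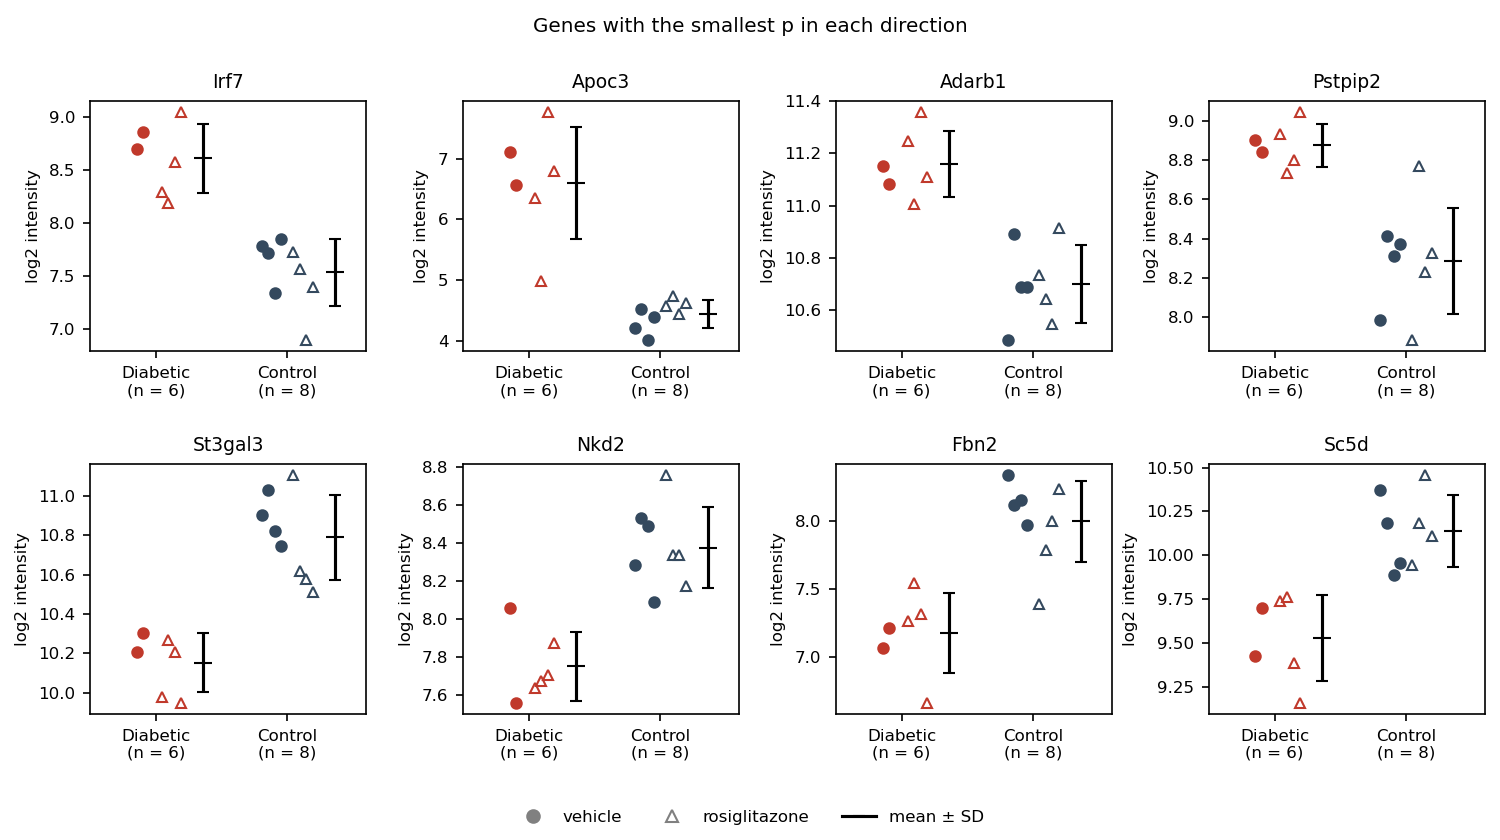
Log2 intensity of 8 of the leading genes in the 6 diabetic and 8 control arrays, with circles for vehicle, triangles for rosiglitazone and bars for mean ± SD. Irf7, Apoc3, Adarb1, St3gal3, Nkd2 and Sc5d do not overlap between the groups, while Pstpip2 and Fbn2 do.

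Genes that interferon induces were higher as a group by count. Of 31 tested, 25 lay higher in diabetic arrays, against 50.3% of all genes, and 10 did so at an unadjusted p under 0.05, against a background of 3.45%. The median difference of the list was 0.18, and 0.00 over all genes. Within treatments it was 0.24 among vehicle and 0.13 among rosiglitazone arrays. Usp18, which limits interferon receptor signalling, had 8.91, 9.17 and 9.48 in diabetic arrays, against 7.90, 8.56 and 8.98 in control arrays (0.66 ± 0.16), and 1 control array reached into the diabetic range. Ifit1, an antiviral RNA-binding protein, differed by 0.62 ± 0.18 and Oasl1, a relative of the oligoadenylate synthetases, by 0.88 ± 0.29. Iigp1, an interferon-inducible GTPase, differed by 0.71 ± 0.25. Bst2, the viral tether tetherin, differed by 0.29 ± 0.12, and Stat2, a signal carrier of the interferon receptor, by 0.22 ± 0.09. Ifit3 differed by 0.27 ± 0.11, Oasl2 by 0.44 ± 0.17 and Psmb8, a subunit of the immunoproteasome, by 0.30 ± 0.13. Trim25, Ddx58, Xaf1, Gbp2, Igtp and Mx2 lay between -0.13 and -0.01. With the Gapdh measure as a covariate 7 members kept an unadjusted p under 0.05 and the median was 0.17. Leaving out 1 array gave 7 to 13 such members.

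The promoters of 4 of these genes are shown because they hold the letters of the interferon-stimulated response element, which were searched as GAAA, any pair of bases and GAAA again, on either strand. Each window runs from 250 bases before to 50 bases after the gene's start, on GRCm38.p6 from RefSeq, with the match in capitals and each sequence read 5′ to 3′ on the strand of its gene. The windows are chr19:34640639-34640938 on the plus strand for Ifit1, chr8:71537423-71537722 on the minus strand for Bst2, chr10:128270248-128270547 on the plus strand for Stat2 and chr19:34583279-34583578 on the plus strand for Ifit3. The 2 matches in Bst2 overlap each other.
Ifit1: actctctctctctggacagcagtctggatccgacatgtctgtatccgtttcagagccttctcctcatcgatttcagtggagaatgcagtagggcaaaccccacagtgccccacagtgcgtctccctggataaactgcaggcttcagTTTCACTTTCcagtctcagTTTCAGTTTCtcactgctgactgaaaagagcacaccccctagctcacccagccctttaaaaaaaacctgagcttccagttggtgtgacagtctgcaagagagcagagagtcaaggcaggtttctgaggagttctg
Bst2: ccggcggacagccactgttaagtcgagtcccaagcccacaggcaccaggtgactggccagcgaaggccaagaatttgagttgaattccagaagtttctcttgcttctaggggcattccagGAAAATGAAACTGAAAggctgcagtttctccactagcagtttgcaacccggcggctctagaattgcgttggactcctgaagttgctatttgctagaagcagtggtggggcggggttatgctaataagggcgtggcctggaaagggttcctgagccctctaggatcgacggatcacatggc
Stat2: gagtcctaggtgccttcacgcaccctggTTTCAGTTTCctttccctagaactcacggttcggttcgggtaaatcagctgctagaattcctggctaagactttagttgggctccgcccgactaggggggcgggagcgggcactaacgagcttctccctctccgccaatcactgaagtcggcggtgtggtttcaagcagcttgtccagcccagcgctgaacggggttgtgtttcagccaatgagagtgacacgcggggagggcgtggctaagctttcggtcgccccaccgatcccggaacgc
Ifit3: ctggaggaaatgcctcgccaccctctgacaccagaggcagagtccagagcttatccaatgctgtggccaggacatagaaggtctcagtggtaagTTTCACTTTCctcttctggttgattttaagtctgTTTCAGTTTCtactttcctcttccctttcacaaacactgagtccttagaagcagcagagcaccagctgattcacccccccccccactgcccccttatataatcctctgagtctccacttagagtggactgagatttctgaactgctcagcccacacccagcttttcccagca

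Those letters stood in 13 of the 25 interferon genes with a window, and in 391 of 10802 tested genes with a window (3.62%). Among all 32851 windows of the reference table the share was 3.44%. The 4 genes printed are those with a match among the 8 with a window and an unadjusted p under 0.05, and Irf7 has no match in its window. A match describes the letters only.

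Myelin genes lay lower in the diabetic arrays without exception. All 24 tested members had a difference below 0, against 49.7% of all genes, and 9 had an unadjusted p under 0.05, against 4.7%. The median difference was -0.16, with -0.20 among vehicle and -0.16 among rosiglitazone arrays. The individual differences were small. Ugt8a, which makes the myelin lipid galactosylceramide, had 12.30, 12.54 and 12.75 in diabetic arrays, against 12.67, 12.81 and 13.00 in control arrays (-0.31 ± 0.08). Ndrg1, needed in Schwann cells for stable myelin, had 13.72, 13.77 and 13.80 in diabetic arrays, against 13.87, 13.91 and 13.998 in control arrays, without overlap (-0.14 ± 0.05). Egr2, the transcription factor that drives peripheral myelination, differed by -0.29 ± 0.13. Fa2h, which hydroxylates myelin lipids, differed by -0.24 ± 0.09, Dhh, a hedgehog ligand of Schwann cells, by -0.24 ± 0.09 and Pmp2, a lipid carrier of peripheral myelin, by -0.26 ± 0.11. The major myelin protein genes Mbp and Pmp22 differed least, by -0.07 ± 0.05 and -0.06 ± 0.04. Their intensities, over 14 log2 units, are near the top of the scale.

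The direction of the myelin list depended on which arrays were used. Leaving out 1 array gave medians from -0.19 to -0.13, and the Gapdh covariate gave -0.22 with 8 members at an unadjusted p under 0.05. With all 19 arrays and a term for low Isl1, the median was 0.02 and 10 of 24 members were lower, with 0 at an unadjusted p under 0.05. Genes of repair and immature Schwann cells had no common direction, 9 of 18 being higher, with a median of 0.01. Shh, a hedgehog ligand that Schwann cells make after injury, differed by -0.51 ± 0.16, but only 1 of its 2 probe sets was lower.

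**Figure D3:**
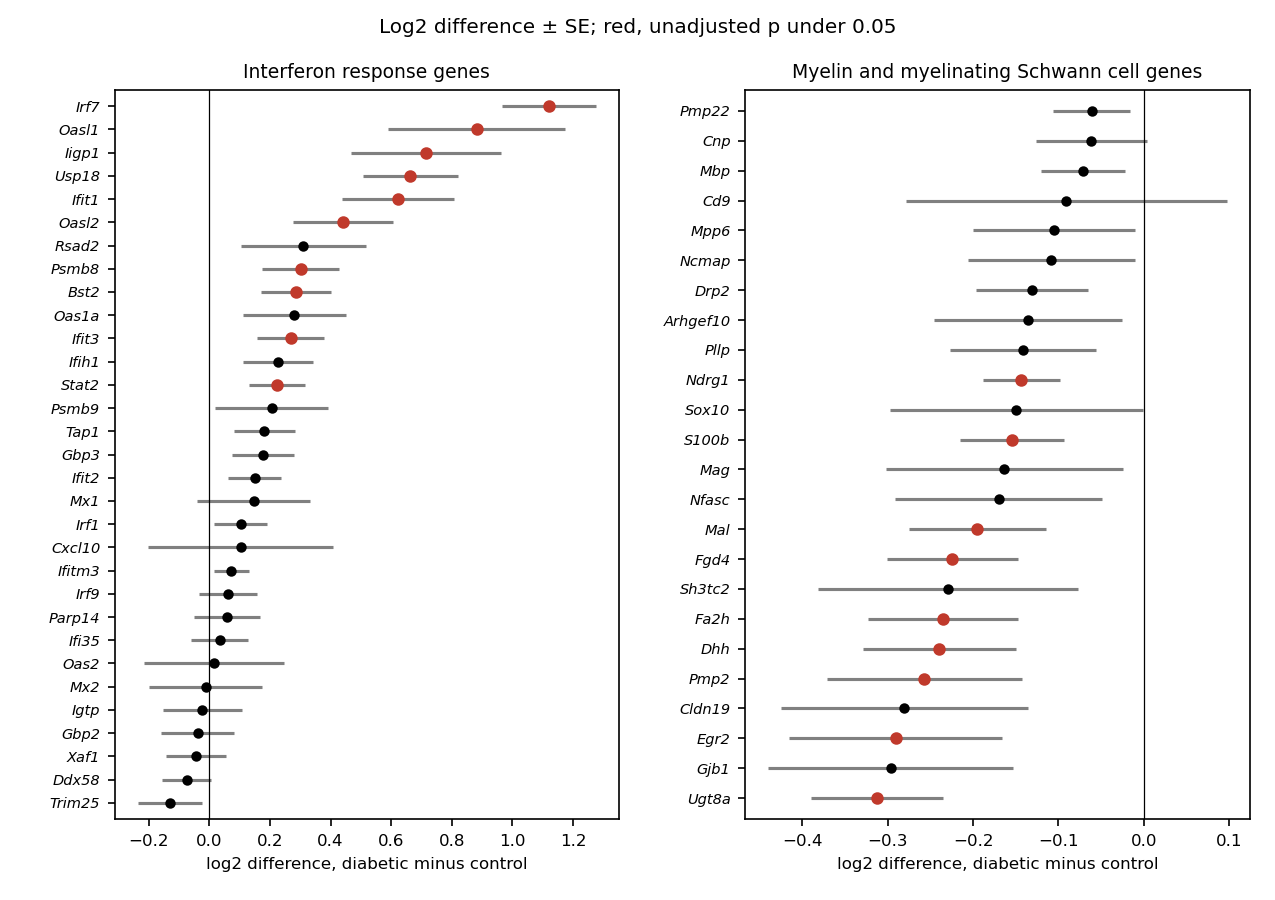
Log2 difference (diabetic minus control, ± SE) of 31 interferon response genes and 24 myelin and myelinating Schwann cell genes. Red points have an unadjusted p under 0.05. Interferon genes lie above 0 in 25 of 31 cases and myelin genes below 0 in 24 of 24.

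Some genes of the circadian clock lay higher and others lower. In mammals Arntl and its partners Clock and Npas2 activate the Per and Cry genes, whose products shut this activation off, so that Arntl and Per transcripts peak at opposite times of day. Per2 had 8.46, 8.65 and 8.98 in diabetic arrays, against 6.29, 7.89 and 8.75 in control arrays (0.95 ± 0.32). The diabetic arrays were narrow and the control arrays spread over more than 2 log2 units. Per3 differed by 0.46 ± 0.18 and Cry2 by 0.32 ± 0.14. For Cry2 this was 0.69 among vehicle arrays, only 2 of them diabetic, and 0.08 among rosiglitazone arrays. Arntl had 6.33, 7.94 and 8.56 in diabetic arrays, against 7.73, 8.84 and 9.80 in control arrays (-0.96 ± 0.38). Npas2 was measured at -0.81 ± 0.42, but only 1 of its 2 probe sets was lower. Clock was at -0.09 ± 0.12. Of 15 core genes, 3 were higher (20%) and 1 lower (6.67%) at an unadjusted p under 0.05, against 3.45% and 4.7% of all genes. The count higher was 1 without diabetic vehicle array A or diabetic rosiglitazone array D. Arntl did not keep that threshold with array weights, within either treatment, with the Gapdh covariate, or without control rosiglitazone array C, control rosiglitazone array D or diabetic rosiglitazone array D.

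Of 16 clock output genes, 5 (31.2%) were higher at an unadjusted p under 0.05, against 3.45% of all genes. The count was 0 among vehicle arrays (6.72% of all genes were higher there) and 5 among rosiglitazone arrays (2.03% of all genes). It was 2 with muscle level as a covariate or with arrays centred on their medians. Without 1 array it ran from 2 to 6, being 2 without control vehicle array B, control rosiglitazone array B or diabetic rosiglitazone array D, and 3 without control vehicle array A, control rosiglitazone array C, control rosiglitazone array D or diabetic rosiglitazone array A. Ciart, a repressor of Arntl and Clock, had 7.50, 7.80 and 8.43 in diabetic arrays, against 6.17, 7.13 and 8.08 in control arrays (0.73 ± 0.27). Hlf and Tef, PAR leucine zipper factors driven by the clock, differed by 0.26 ± 0.11 and 0.31 ± 0.14, and Wee1, a cell cycle kinase, by 0.39 ± 0.17. Tspan4, a tetraspanin, differed by 0.45 ± 0.17. Dbp, the third factor of that family, was at 0.57 ± 0.36, with 1.09 among vehicle and 0.22 among rosiglitazone arrays. With the Gapdh covariate the difference of Per2 was 1.63, and 3 core and 2 output genes were higher, and 0 core genes lower, at an unadjusted p under 0.05. The hour of dissection is not given in the labels, and its part in these differences was not tested. The Ciart promoter is shown because its window (chr3:95882179-95882478, minus strand, GRCm38.p6 from RefSeq) holds the E-box CACGTG, the site of Arntl and Clock, 3 times, in capitals.
Ciart: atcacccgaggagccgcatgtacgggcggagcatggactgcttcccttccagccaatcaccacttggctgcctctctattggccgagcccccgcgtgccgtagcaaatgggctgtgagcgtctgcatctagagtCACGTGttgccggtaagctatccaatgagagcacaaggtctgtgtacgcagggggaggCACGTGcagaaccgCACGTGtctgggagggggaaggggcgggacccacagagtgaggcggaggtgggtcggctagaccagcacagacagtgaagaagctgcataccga
An E-box stood in 1244 of 10802 tested genes with a window (11.5%), and in 2 of 12 core clock genes, Cry1 and Per1.

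**Figure D4:**
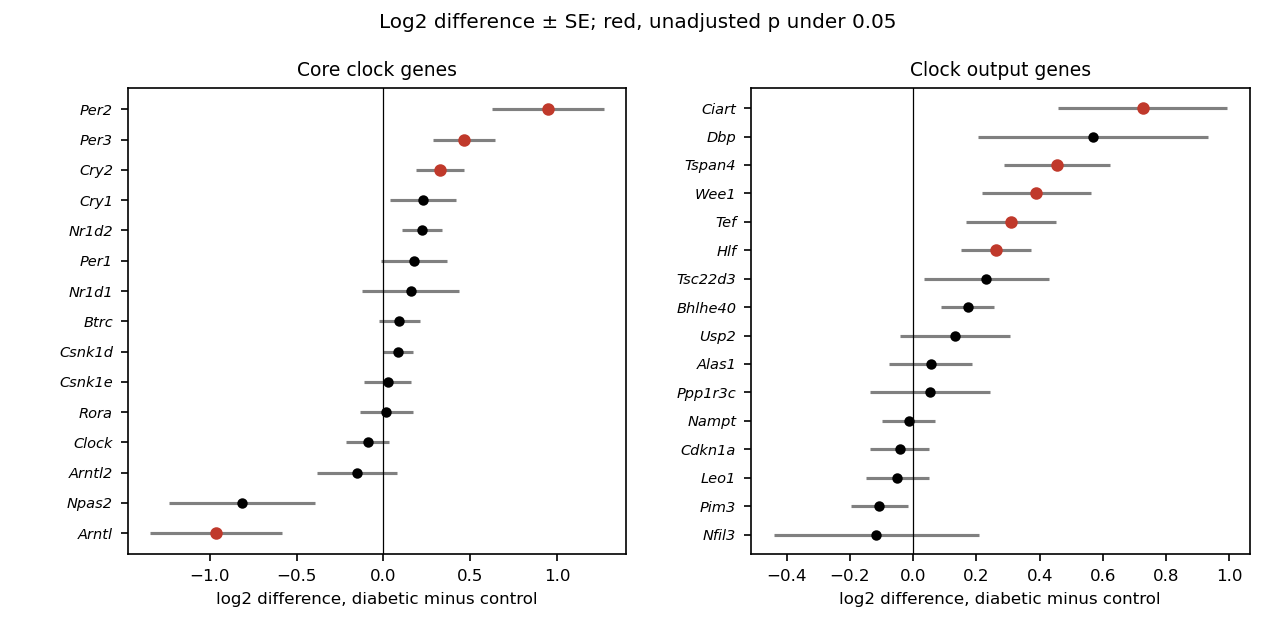
Log2 difference (diabetic minus control, ± SE) of 15 core clock and 16 clock output genes. Red points have an unadjusted p under 0.05. Per2, Per3 and Cry2 lie above 0 and Arntl below it.

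Matrix genes lay mostly lower. Of 52 tested, 41 were lower in diabetic arrays and 11 were lower at an unadjusted p under 0.05 (21.2%), against 4.7% of all genes, with a median difference of -0.14. Col4a1, a basement membrane collagen, had 12.08, 12.30 and 12.56 in diabetic arrays, against 12.52, 12.67 and 12.82 in control arrays (-0.35 ± 0.08), with overlap at the edges. Col15a1, another collagen of basement membranes, differed by -0.56 ± 0.16. Col1a1, the main fibrillar collagen of the nerve sheaths, differed by -0.27 ± 0.08, Col3a1 by -0.19 ± 0.08 and Col5a2 by -0.38 ± 0.13. Serpinh1, the chaperone of collagen folding, differed by -0.46 ± 0.21. Sparc, a matrix glycoprotein, differed by -0.08 without overlap, and was picked after its values were seen. The matrix difference lay mainly among vehicle arrays, where the median was -0.30 and 22 members were lower at an unadjusted p under 0.05 (4.58% of all genes were), against a median of -0.04 and 1 such member among rosiglitazone arrays (3.05% of all genes). That contrast of treatments was not tested for the list, and only 2 diabetic vehicle arrays entered it. Among those vehicle arrays the sensory neuron genes had a median of 0.81 and the central glia genes of 1.01. With sensory neuron level as a covariate the matrix median over both treatments was -0.10, with 9 members lower. It was -0.08 without diabetic vehicle array A, and 7 members were lower without diabetic vehicle array B. With the Gapdh covariate 4 members were lower at that threshold, and 4 were with diabetic vehicle array A and control rosiglitazone array A left out, where the median was -0.06.

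Lipid synthesis genes also lay mostly lower. Of 20 cholesterol genes, 18 were lower, against 49.7% of all genes, and 4 (20%) had an unadjusted p under 0.05, against 4.7%. Beside Sc5d these were Cyp51, which demethylates lanosterol, with -0.40 ± 0.11, Idi1, an isoprenoid isomerase, with -0.29 ± 0.12, and Hsd17b7 with -0.30 ± 0.13. Cyp51 had 10.45, 10.83 and 11.02 in diabetic arrays, against 10.95, 11.20 and 11.46 in control arrays. The list's median was -0.08, being 0.07 among vehicle and -0.23 among rosiglitazone arrays, where the central glia genes were at 1.01 and -0.86. It was -0.19 without diabetic vehicle array A, -0.03 without diabetic rosiglitazone array C and -0.05 without control rosiglitazone array A, and 2 members kept the threshold without control rosiglitazone array B, control rosiglitazone array C or diabetic rosiglitazone array C. Of 22 fatty acid and triglyceride genes, 17 were lower and 3 had an unadjusted p under 0.05, against 4.7% of all genes. Their median was -0.10, being 0.00 among vehicle arrays, with 11 of 22 lower, and -0.20 among rosiglitazone arrays. Without 1 array the count ran from 1, without control rosiglitazone array B or C, to 6, without diabetic vehicle array A. It was 2 without diabetic vehicle array B, control rosiglitazone array A or any 1 diabetic rosiglitazone array. Fads2, which desaturates essential fatty acids, had 11.15, 11.41 and 11.92 in diabetic arrays, against 11.62, 11.86 and 12.18 in control arrays (-0.32 ± 0.08). Scd1, stearoyl-CoA desaturase, differed by -0.17 ± 0.07 and Fasn, fatty acid synthase, by -0.27 ± 0.12. With the Gapdh covariate 1 cholesterol and 1 fatty acid gene kept an unadjusted p under 0.05. Lep, the hormone of adipocytes, had 4.35, 5.02 and 7.68 in diabetic arrays, against 3.58, 8.34 and 10.78 in control arrays. In 5 of 6 diabetic arrays and 1 of 8 control arrays it lay at or below the filter level of 5.54, so the difference of -2.55 is set against a dim signal, and the groups overlapped. It was -0.73 among vehicle and -3.76 among rosiglitazone arrays, while Adipoq differed by 0.33 ± 0.66.

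Subunits of the proteasome, which degrades tagged proteins, lay higher in 28 of 31 cases, against 50.3% of all genes, with a median of 0.10, and 6 (19.4%) had an unadjusted p under 0.05, against 3.45%. With all 19 arrays 14 of 31 were higher and the median was -0.03, and with a term for low Isl1 added 18 were higher and the median was 0.01. Psma7, a subunit of the core particle, had 12.88, 12.92 and 12.98 in diabetic arrays, against 12.66, 12.79 and 12.88 in control arrays (0.15 ± 0.05). Psmd12 of the regulatory particle differed by 0.13 ± 0.05. None passed with the Gapdh covariate, 1 did with arrays centred on their medians, 1 did without diabetic rosiglitazone array D and 3 did without control rosiglitazone array D. Of 62 oxidative phosphorylation genes 41 were higher, with a median of 0.03 that was 0.00 without diabetic vehicle array A and -0.02 with all 19 arrays and a term for low Isl1. An unadjusted p under 0.05 was held by 4 (6.45%, against 3.45%), Atp5g1 of the ATP synthase (0.15 ± 0.06), Uqcrc1 (0.25 ± 0.10) and Uqcrfs1 (0.14 ± 0.06) of complex III, and Cox5a of complex IV (0.13 ± 0.06).

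Immediate early genes, which neurons and glia switch on within minutes of a stimulus, split in direction. Of 28 tested, 18 lay higher, against 50.3% of all genes, with a median of 0.11 that was 0.04 without diabetic vehicle array B and 0.27 without diabetic vehicle array A. An unadjusted p under 0.05 was held by 4 higher (14.3%, against 3.45%) and 3 lower (10.7%, against 4.7%). Btg2 (0.66 ± 0.21), Ier2 (0.62 ± 0.24), Egr1 (0.31 ± 0.13) and Fos (0.53 ± 0.24) were the higher ones, and Nr4a2 (-0.42 ± 0.10), Egr2 and Ier5 (-0.29 ± 0.13) the lower ones. Only 4 of 6 probe sets of Nr4a2 pointed down. Fkbp5, a glucocorticoid-induced co-chaperone, had 10.08, 10.35 and 10.95 in diabetic arrays, against 9.12, 9.84 and 10.57 in control arrays (0.66 ± 0.25). Of 27 glucocorticoid response genes 18 were higher and 9 lower, with a median of 0.06. Only 1 was higher at an unadjusted p under 0.05 (3.7%, against 3.45%), and 0 were lower.

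Immune cell genes other than the interferon set had wide spread. All 11 genes of MHC class II presentation lay higher, against 50.3% of all genes, with a median of 0.19 and 0 at an unadjusted p under 0.05, or 3 without diabetic vehicle array A or diabetic rosiglitazone array B. Cd74, the invariant chain, was at 0.16 ± 0.08 and H2-Eb1 at 0.27 ± 0.13. Neutrophil and mast cell genes lay higher in 15 of 16 cases, against 50.3% of all genes, with a median of 0.77, none at that threshold. Among vehicle arrays 13 of 16 were higher, and among rosiglitazone arrays 15. The neutrophil genes S100a8 and S100a9 were at -1.60 ± 2.10 and -1.84 ± 1.93 among vehicle arrays. Among rosiglitazone arrays they were at 2.31 ± 1.02 and 2.31 ± 0.80. Other neutrophil genes did not share that fall among vehicle arrays. Ngp, Camp, Ltf, Mpo and Mmp9 were at 0.22, 0.44, 0.54, 0.75 and 0.03 there, and Lcn2 at -0.17. The list's median was 0.49 without diabetic vehicle array B and 1.25 without diabetic vehicle array A, where 6 members were at that threshold. Without diabetic rosiglitazone array B 6 were as well, at a median of 1.06. The share of all genes at that threshold in these fits is not given here. Tpsb2, a mast cell tryptase, had 9.43, 11.09 and 12.35 in diabetic arrays, against 8.86, 10.11 and 11.85 in control arrays (1.05 ± 0.50). The list's median was 0.13 with the Gapdh covariate. Ccl8, a chemokine for monocytes, had 10.05, 11.56 and 13.67 in diabetic arrays, against 8.59, 9.86 and 11.94 in control arrays (1.66 ± 0.59). Cx3cr1, the fractalkine receptor of macrophages, was lower (-0.38 ± 0.14) and Mpeg1, a pore-forming protein of macrophages, was at 0.24 ± 0.11. Of 22 macrophage genes 17 were higher, against 50.3% of all genes, with a median of 0.16 that was -0.02 among vehicle and 0.22 among rosiglitazone arrays. It was 0.05 without diabetic rosiglitazone array C.

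Genes tied to insulin and glucose by their function had small differences. Insr, the insulin receptor, differed by -0.01 ± 0.08, Txnip, which glucose induces in many cells, by 0.01 ± 0.15, and Pdk4, induced by fasting, by -0.00 ± 0.09. Of 27 glycolysis genes 20 were higher with a median of 0.07, or 0.04 without diabetic vehicle array A, and Pfkm, a phosphofructokinase of muscle, was the 1 member (3.7%, against 3.45%) with an unadjusted p under 0.05 (0.40 ± 0.18). Khk, ketohexokinase, differed by 0.25 ± 0.11 and Gfpt1, which opens the hexosamine pathway, by -0.29 ± 0.13, though only 2 of its 3 probe sets were lower. Of 16 polyol, hexosamine and glycation genes 8 were higher and 8 lower, with a median of 0.00. Khk was the 1 higher member (6.25%, against 3.45%) and Gfpt1 the 1 lower member (6.25%, against 4.7%) at an unadjusted p under 0.05. Of 26 insulin and IGF genes 3 were lower at that threshold (11.5%, against 4.7%), among them Sesn3 (-0.17 ± 0.07) and Akt2 (-0.21 ± 0.09). Becn1, a starter of autophagy, differed by -0.20 ± 0.05, though only 1 of its 3 probe sets was lower. Cat, catalase, differed by -0.14 ± 0.05, and Hmox1 and Sod2 by -0.47 ± 0.52 and -0.15 ± 0.13. Sox11, a transcription factor of regenerating neurons, differed by 0.80 ± 0.30, with 4 of 4 probe sets higher. Atf3 and Gap43, both raised in injured neurons, were at 0.54 ± 0.26 and 0.39 ± 0.32. Of 27 axon injury and regeneration genes 17 were higher and 10 lower, with a median of 0.08. An unadjusted p under 0.05 was held by 1 higher (3.7%, against 3.45%) and 1 lower (3.7%, against 4.7%).

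Skeletal muscle genes lay higher in 27 of 29 cases, against 50.3% of all genes, with a median of 0.69. The median was 0.15 without diabetic rosiglitazone array D or without diabetic vehicle array A, 0.39 without control rosiglitazone array B and 1.11 without diabetic vehicle array B. With array weights it was 0.14, with 17 of 29 higher, and with the Gapdh covariate 2.12, with 7 members at an unadjusted p under 0.05. Tnnc1, a troponin of slow muscle, had 10.24, 10.83 and 11.45 in diabetic arrays, against 9.59, 10.05 and 10.70 in control arrays (0.71 ± 0.22). Tnni1, another troponin of slow muscle, had 6.01, 6.69 and 8.56 in diabetic arrays, against 5.72, 6.13 and 6.58 in control arrays (0.80 ± 0.32). With muscle level as a covariate, 1160 genes had an unadjusted p under 0.05 and 0 an adjusted one, against 1098 and 0 in the main fit. These counts do not measure the part of muscle in any named difference, which was not tested.

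The effect of diabetes was set against treatment in a model with an interaction term. No gene passed (0 of 13460, 0%, smallest adjusted limma p 0.665), and 938 (6.97%) had an unadjusted p under 0.05. The smallest p belonged to Slf2, Lum and Ddc. Lum, the matrix proteoglycan lumican, differed by -0.73 among vehicle and by 0.33 among rosiglitazone arrays. Slf2, a factor of DNA repair, differed by -0.77 and 0.25 in the same order, and Ddc, which makes dopamine and serotonin, by 0.67 and -0.05.

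**Figure D5:**
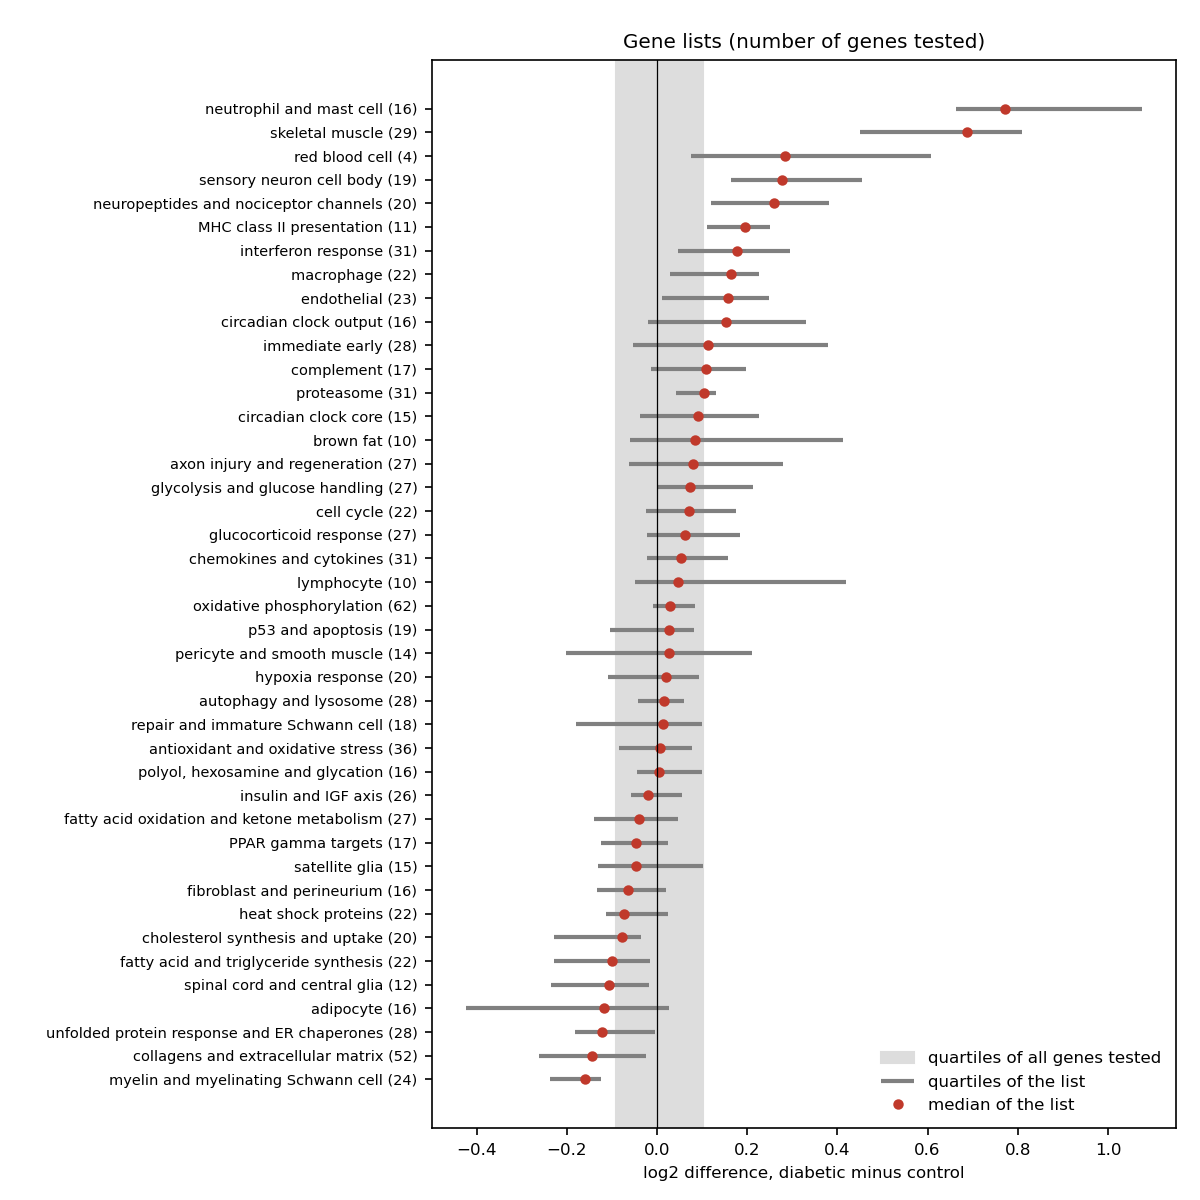
Median (red) and quartiles (grey line) of the log2 difference, diabetic minus control, of 42 gene lists, with the number of genes tested, beside the quartiles of all 13460 genes (shaded). Neutrophil and mast cell genes have a median of 0.77 (0.49 to 1.25 without 1 array) and myelin genes of -0.16 (-0.19 to -0.13).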

How the data were processed

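The deposited values are linear intensities, 1 for each probe set of an array. RMA is named in the submitters' processing notes, with no version or settings. Log2 was taken with no offset. Gene symbols came from the platform annotation (34945 of 45101 probe sets had 1 symbol). Each gene was represented by its brightest probe set over the 19 arrays, and genes above the 40th percentile (log2 5.54) were tested. A model with terms for diabetes and treatment was fitted in R 4.3.3 (limma 3.58.1), adjusted by Benjamini-Hochberg at 0.05 and tested on simulated data. Groups came from the sample titles. Named genes were the 10 smallest p in each direction, up to 2 per list, 26 genes named in every case and the 3 smallest interaction p, and further members are given as examples chosen after their values were seen. The members and lists were chosen with earlier results of these data known. Each array was 1 mouse per the series text, and p-values measure the spread between these arrays. Quality measures were tested by exact permutation within treatment. Alternatives are in the closing section.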

Additional observations from a re-analysis of the deposited data

Results flagged for a closer look

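In 254 groups of 6 or 8 arrays checked with Dixon's rule, 22 had an array far from the rest, where chance flags about 1 in 20 groups. Among diabetic arrays these were Scd1 at 13.28 in rosiglitazone array D, Hadhb at 11.57 and Lep at 7.68 in vehicle array B, Retn at 10.63 in rosiglitazone array B, and Cryab at 13.55 and the beta-actin 3' minus 5' difference at 1.29 in vehicle array A. Among control arrays, vehicle array A stood apart for Ndrg1 at 13.998, Sesn3 at 10.89, Retn at 6.65, Adipoq at 8.04 and Fabp4 at 11.16. Vehicle array B did for Tagln at 13.49, and vehicle array D for Atp5g1 at 12.82 and Fabp3 at 10.32. Rosiglitazone array A did for Zmat3 at 10.52, Igf1r at 8.34, Hmox1 at 9.26, Sod2 at 11.24 and the beta-actin difference at 1.31. Rosiglitazone array C did for Rtp4 at 8.18 and Akt2 at 8.29, and rosiglitazone array B for Ddc at 6.09.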

How the results depend on the processing

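No paired analysis was possible because each replicate number belongs to 1 array and no number is shared between groups. Over 35 alternative settings, 85 of 125 named genes kept their direction in every one and 40 changed it in at least 1; of 42 list medians 9 never changed sign. The count of genes past the adjusted threshold was 0, 3 with array weights (Irf7, Nkd2 and St3gal3), 2 with adipocyte level as a covariate (Irf7 and Mmd) and 0 to 3 without 1 array, being 3 without diabetic rosiglitazone array B (Apoc3, Irf7 and 6030407O03Rik) and 1 without array C of that group (Pla2g5). For Apoc3 all 8 control arrays lay below the filter level, and array B was the 1 diabetic array below it. Its place in that count is therefore no support for a difference. The count at an unadjusted p under 0.05 was 1098 of 13460 genes, and 683 within rosiglitazone arrays. Within vehicle arrays 905 genes were higher and 616 lower at that threshold. The count was 1756 with array weights, 663 with the Gapdh covariate and 1673 with the beta-actin covariate chosen after seeing the data. It ran from 861 to 1656 without 1 array, the highest without diabetic rosiglitazone array C. With all probe sets tested separately it was 1684. More than 1 probe set can then stand for a gene, so that count is not set against the 13460 genes. The interaction count was 0 to 13 without 1 array, with 13 only without diabetic vehicle array B. Leaving out diabetic vehicle array A or B leaves only the other of them in that group. The spread within the group cannot then be measured, so the interaction count of such a fit is no support for an interaction. Few mice limit what this comparison can show.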
